A study of Homo sapiens with 30 samples.

Results

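The DEAD and DEAH box RNA helicases are the genes whose symbols begin with DDX or DHX and a number. In the deposited files 65 symbols matched that pattern, and 60 were left without the RNA sensors DDX58 and DHX58, the Y-linked DDX3Y and antisense entries. Each symbol was represented by its transcript with the highest mean count, and 54 of the 60 had a mean of at least 10 counts over the libraries. They were 40 DDX and 14 DHX genes, out of 25680 symbols in the files. DDX11L16, DDX4, DDX25, DHX16, DDX11L10 and DDX11L1 fell below that minimum, with mean counts of 0 to 7.17. The 16 rows of DHX16 are all separate placements counted on their own, so its mean of 2.33 is not its level. Just inside the minimum were DDX11L9 with 18.58 and DDX11L5 with 24.75. All 54 also passed the low-count filter of the test.

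These enzymes bind RNA and use ATP to open short helices, to remodel RNA bound by proteins or to clamp proteins onto RNA. Each cellular step of RNA metabolism has its own members, and the largest number act in the nucleolus, where ribosomal RNA is folded, cut and assembled into subunits. Others drive the spliceosome, load export factors, unwind leaders for translation or take part in the response to foreign RNA. Plasma cells and the myelomas that arise from them make large amounts of secreted protein, which draws heavily on ribosomes.

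Cells of H929 and OPM2, lines grown from human multiple myelomas, were exposed to dBRD9-A at 100 nM or to DMSO for 24 h before their messenger RNA was sequenced. dBRD9-A makes cells destroy the BRD9 protein, which reads acetylated histones as part of ncBAF, a complex that moves nucleosomes. The 4 groups were H929 with dBRD9-A, H929 with DMSO, OPM2 with dBRD9-A and OPM2 with DMSO, with 3 libraries each, so 12 of the 30 samples listed were used and the other 18 were not analysed here. Each line is a single long-cultured tumour line, so the comparisons describe these lines and not myeloma at large.

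Summed over the chosen transcript of each symbol, the libraries held 42895379 to 76600957 counts, apart from OPM2 dBRD9-A replicate 2 with 24524190. That library stood apart from its mates, with an SD of log2 deviations of 0.813 over 9390 genes against 0.13 to 0.46 in the other 11. The 7 plasma cell markers SDC1, TNFRSF17, XBP1, IRF4, PRDM1, CD38 and MZB1 were present in every library. With dBRD9-A MZB1 was called lower in OPM2 (log2 fold change -1.57, edgeR adjusted p = 0.000274), with -0.37 in H929 (adjusted p = 0.213). IRF4 was called lower in H929 (-0.72, adjusted p = 0.045), with -0.62 in OPM2 (adjusted p = 0.0643). That is 14.3% of the 7 in each line, beside 5.67% of all genes lower in H929 and 7.36% in OPM2. Of 12 markers of T cells, myeloid cells and stroma or epithelium 7 were tested. With dBRD9-A 4 of these 7 were called higher in H929 and 2 in OPM2, beside 7.33% and 10.1% of all genes. The summed CPM of the 12 markers, counts scaled to library size, was 76.4 to 102.5 with dBRD9-A and 54.5 to 68.4 with DMSO in H929. The sums were 3.12 to 3.52 and 2.08 to 2.44 in OPM2. The 4 called in H929 were CD2, CSF1R, KRT8 and COL1A1, and the 2 in OPM2 were KRT8 and COL1A1. Both OPM2 calls were near the floor. KRT8 averaged 0.137 CPM there with dBRD9-A and 0.0235 CPM with DMSO, and COL1A1 0.298 and 0.0691 CPM. CD2 averaged 0.356 and 0.0646 CPM in H929. In H929 most of the sum was CD3E, at 36.3 to 39.3 CPM with dBRD9-A and 23.2 to 25.5 CPM with DMSO, and PECAM1, at 29.2 to 44.9 and 27.4 to 37.1 CPM. CD3D, EPCAM, LYZ and COL1A2 were at or near 0 in every library, and the part of such cells in the results was not tested. The BRD9 transcript had 59.2, 60.3 and 71.5 CPM with dBRD9-A and 79.9, 103 and 79.9 CPM with DMSO in H929 (log2 fold change -0.46, edgeR adjusted p = 0.0391), and -0.23 in OPM2 (adjusted p = 0.241). The compound acts on the protein, so the transcript does not check the labels. In bulk RNA, fewer cells holding a transcript and less of it per cell cannot be told apart.

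The helicases themselves show how replicate 2 of OPM2 dBRD9-A differed. Among the 47 members with a mean of at least 500 counts, its log2 ratio to replicates 1 and 3 correlated with transcript GC content (Spearman -0.688 over 47 genes of the same libraries). Of 22 members under 45% GC, 20 were higher in replicate 2 than in both mates, and of 13 at 55% GC or more, 12 were lower. DDX46, a spliceosomal helicase at 38.65% GC, had 225, 500.2 and 221 CPM in OPM2 dBRD9-A replicates 1, 2 and 3. DHX34, at 61.51% GC, had 33.7, 18.6 and 39.4 CPM in the same libraries, and DDX46 was chosen after its values were seen. Over 9390 genes the deviation of OPM2 dBRD9-A replicate 2 from its mates correlated with GC content at -0.698. H929 dBRD9-A replicates 1 and 2 had -0.618 and 0.645, and OPM2 DMSO replicates 1 and 3 0.405 and -0.451. Such a trend is thus not particular to replicate 2, whose deviations were larger, with an SD of 0.813 against 0.201 and 0.247 in those H929 libraries. Results that change without OPM2 dBRD9-A replicate 2 are given both ways.

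**Figure D1:**
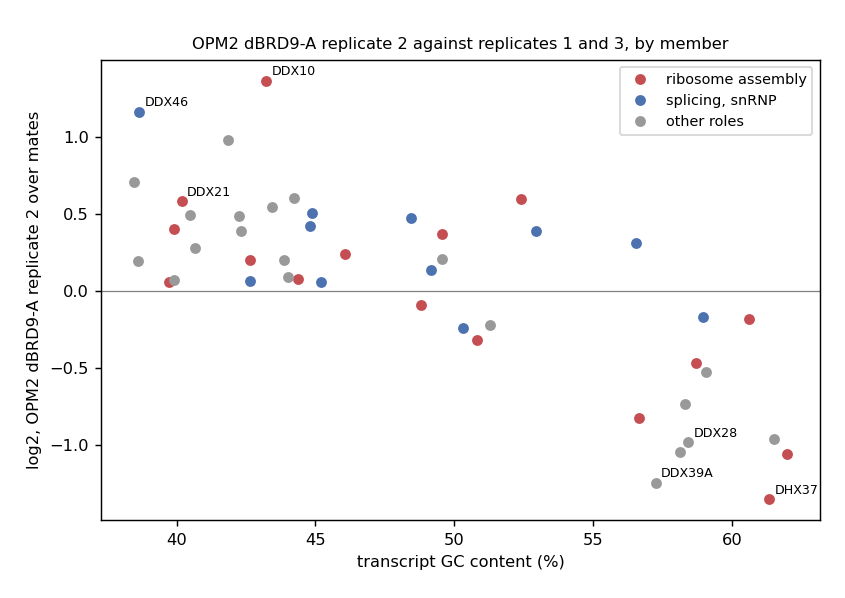
Each point is 1 of the 47 members with a mean of at least 500 counts, with transcript GC content (%) on the x axis and the log2 ratio of OPM2 dBRD9-A replicate 2 to the mean of replicates 1 and 3 on the y axis, coloured by role. Members under 45% GC lie mostly above 0 and members at 55% GC or more mostly below it.

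In H929, dBRD9-A lowered 9 of the 54 helicases and raised 2, calling a gene at an edgeR adjusted p under 0.05 over the 16409 genes tested. Of all genes tested 13.0% were called, 7.33% higher and 5.67% lower, so the 16.7% of members that fell stand beside a background of 5.67%. The median log2 fold change of the members was -0.30, against 0.00 over all genes, and 45 of 54 members lay below 0, against 50.2% of all genes. Without H929 DMSO replicates 2 and 3 in turn 3 and 7 members were called, beside 4.86% and 6.34% of all genes, and without H929 dBRD9-A replicates 1 and 2 in turn 4 and 6, beside 5.37% and 7.91%. Treated libraries lay below DMSO without overlap for 33 members (61.1%, beside 23.6% of all genes) and above it for 2 (3.70%, beside 22.0%). Without OPM2 dBRD9-A replicate 2, which enters the shared estimate of spread, 28 were called, 26 lower and 2 higher, when 35.7% of all genes were called, 16.5% lower and 19.2% higher.

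In OPM2, dBRD9-A lowered 14 of the 54 helicases and raised 2. Of all genes tested 17.4% were called, 10.1% higher and 7.36% lower, against 25.9% of members lower. The median of the members was -0.04, against 0.03 over all genes, and it was 0.01 without dBRD9-A replicate 1 or 3. Without DMSO replicates 1, 2 and 3 in turn 8, 6 and 9 members were called, beside 9.14%, 8.29% and 8.92% of all genes. Without overlap 20 members were below DMSO (37.0%, beside 18.9% of all genes) and 6 above it (11.1%, beside 18.8%). With dBRD9-A replicate 2 left out the count was 24, 22 lower and 2 higher, when 31.7% of all genes were called, 15.6% lower and 16.1% higher, and the median was -0.18. Scaled by library size alone, 71.8% of the genes called in H929 and 69.4% of those called in OPM2 were higher, against 56.4% and 57.8% with TMM factors. In that setting 9 members were called in H929 and 11 in OPM2, beside 13.5% and 17.8% of all genes, 2 of them higher in each.

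Of the members called in both lines 9 of 9 moved the same way, beside 98.4% of all genes called in both. DDX54, DDX31, DDX18, DHX33, DDX51, DDX21 and DDX19A were lower in both, DDX60 and DDX60L higher in both, and 36 members were called in neither. The 2 higher in both are 3.70% of members, beside 3.77% of all genes. The 7 lower in both are 13.0% of members, beside 3.19% of all genes, and leaving out OPM2 dBRD9-A replicate 2 gave 22 of 54 (40.7%) beside 10.4%. None of the 9 other settings and no library left out turned the sign of a call in either line.

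**Figure D2:**
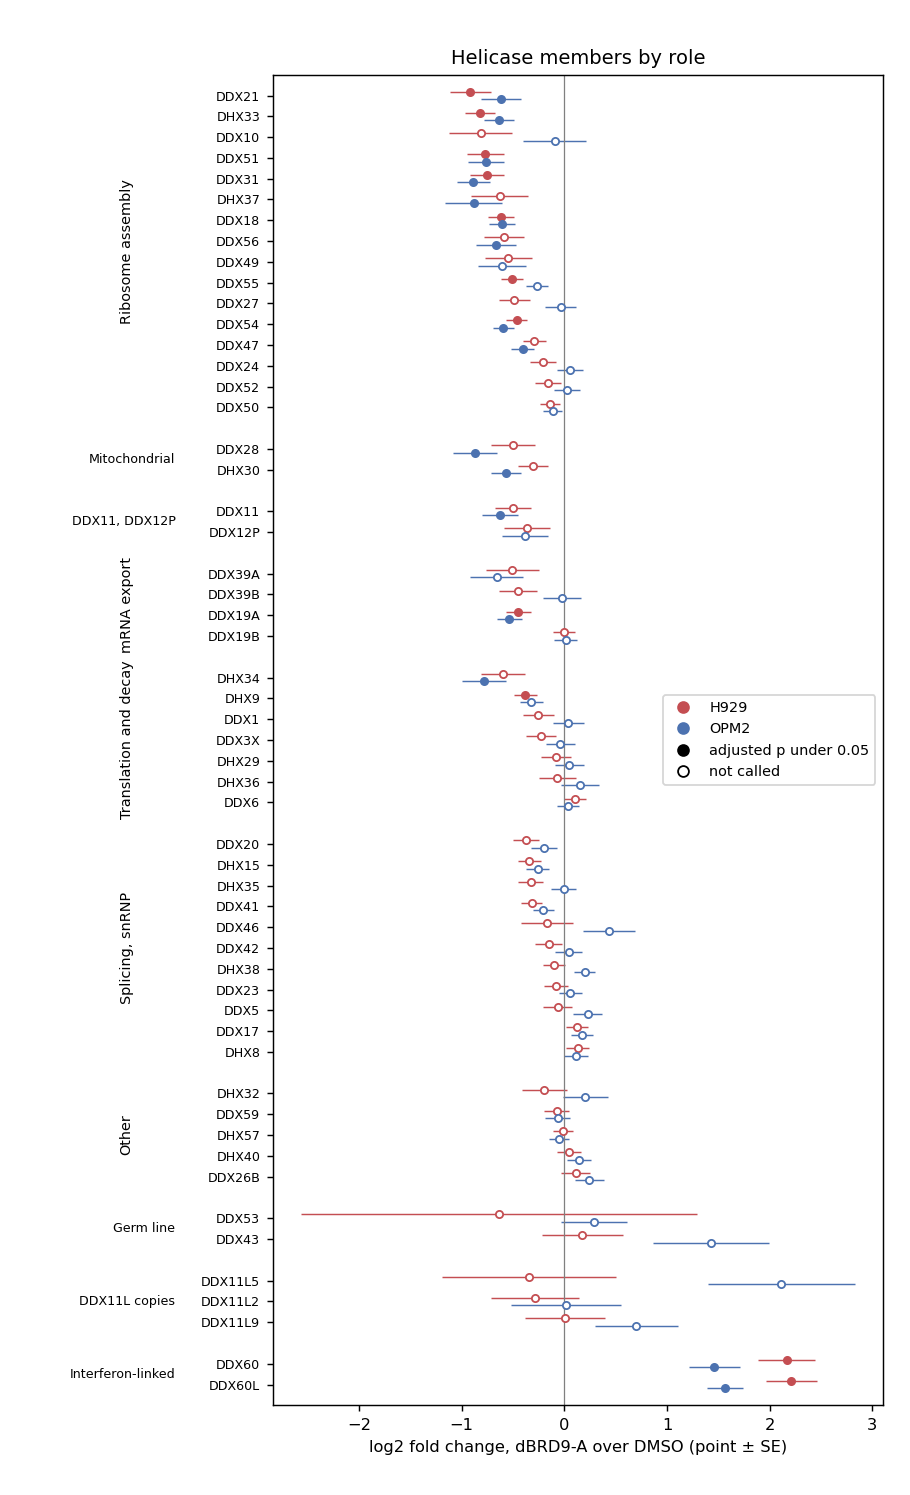
Log2 fold change of dBRD9-A over DMSO for all 54 members (x axis, point ± SE), grouped by role down the page, H929 in red and OPM2 in blue, with filled points for adjusted p under 0.05. The ribosome assembly members lie mostly left of 0, the splicing members near 0, and DDX60 and DDX60L to the right at 1.46 to 2.21.

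Helicases of ribosome assembly were 7 of the 9 members that fell in H929 and 9 of the 14 that fell in OPM2. The role has 16 members, so 43.8% fell in H929 and 56.2% in OPM2, beside 5.67% and 7.36% of all genes, 6 fell in both and none rose. Roles were assigned with earlier results of these data known, so these shares describe the chosen grouping and do not test it. DHX15, which also serves ribosome assembly and was not called, was placed with splicing. All 16 had a log2 fold change below 0 in H929 and 14 in OPM2, with medians of -0.57 and -0.60. With OPM2 dBRD9-A replicate 2 left out 13 fell in each line, all 13 in both, beside 16.5% of all genes in H929 and 15.6% in OPM2, and the medians were -0.54 and -0.50. They were then 13 of the 26 members lower in H929 and 13 of the 22 in OPM2. With limma-voom they were 12 of 25 in H929 and 14 of 25 in OPM2, when 18.6% and 20.9% of all genes were lower. In H929, 1 fell without H929 DMSO replicate 2, 2 without dBRD9-A replicate 1 and 4 without dBRD9-A replicate 2, beside 1.38%, 1.59% and 2.29% of all genes. In OPM2, 5, 4 and 5 fell without DMSO replicates 1, 2 and 3 in turn, beside 3.64%, 3.24% and 3.63%.

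DDX54, a nucleolar helicase of the large subunit that also binds nuclear receptors, had 104, 108 and 115 CPM in H929 with dBRD9-A and 137, 164 and 149.6 CPM with DMSO. In OPM2 DDX54 had 147, 133 and 155 CPM with dBRD9-A and 226, 218 and 212 CPM with DMSO. In each line every treated library lay below every DMSO library, with log2 fold changes of -0.47 ± 0.10 (SE) in H929 and -0.59 ± 0.10 in OPM2 (edgeR adjusted p = 0.013 and 0.00308). With the trend with GC content removed neither was called, at -0.43 in H929 (adjusted p = 0.115) and -0.22 in OPM2 (adjusted p = 0.4), and the H929 call was lost without H929 DMSO replicate 2 (adjusted p = 0.102) or 3 (adjusted p = 0.0656) and without dBRD9-A replicate 1 (adjusted p = 0.0896) or 2 (adjusted p = 0.0577).

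DHX33, a DEAH helicase tied to ribosomal RNA synthesis, had 55.7, 51.2 and 70.1 CPM in H929 with dBRD9-A and 87.6, 122 and 103 CPM with DMSO. In OPM2 DHX33 had 37.7, 37.7 and 42.5 CPM with dBRD9-A and 59.1, 63.3 and 61.3 CPM with DMSO. The groups did not overlap in either line. Its log2 fold change was -0.82 ± 0.14 in H929 and -0.64 ± 0.14 in OPM2 (SE, edgeR adjusted p = 0.00384 and 0.0113), and both calls held in every alternative run, including each library left out.

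DDX31, a nucleolar helicase of early subunit assembly, had 19.6, 19.6 and 25.5 CPM in H929 with dBRD9-A and 29.7, 43.3 and 36.0 CPM with DMSO. In OPM2 DDX31 had 17.2, 14.5 and 19.2 CPM with dBRD9-A and 30.8, 31.7 and 31.8 CPM with DMSO, also without overlap. The log2 fold change was -0.75 ± 0.16 in H929 and -0.89 ± 0.16 in OPM2 (SE, edgeR adjusted p = 0.0107 and 0.00398). The OPM2 call held in every alternative, and the H929 call was lost without H929 DMSO replicate 2 (adjusted p = 0.0802) and without dBRD9-A replicate 1 (adjusted p = 0.0755) or 2 (adjusted p = 0.0597).

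DDX18, which acts in the maturation of the large subunit, had 185, 149 and 201 CPM in H929 with dBRD9-A and 248, 305 and 267 CPM with DMSO. In OPM2 DDX18 had 112, 121 and 122 CPM with dBRD9-A and 174, 181 and 186 CPM with DMSO. Treated and DMSO libraries did not overlap in either line, and the OPM2 replicates lay close together although replicate 2 was among them. The log2 fold change was -0.62 ± 0.12 in H929 and -0.61 ± 0.12 in OPM2 (SE, edgeR adjusted p = 0.00788 and 0.0068), and of all alternatives only H929 DMSO replicate 2 left out ended the H929 call (adjusted p = 0.0582).

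DDX21, the nucleolar helicase that coordinates transcription and processing of ribosomal RNA, was among the more abundant members that fell, and its values by library are given with its paralogue DDX50 by a choice made after they were seen. DDX21 had 262, 206 and 329 CPM in H929 with dBRD9-A and 420.4, 583 and 499.9 CPM with DMSO (log2 fold change -0.91 ± 0.20 SE, edgeR adjusted p = 0.0109). In OPM2 DDX21 had 355, 550.1 and 380.1 CPM with dBRD9-A and 639.7, 663 and 668 CPM with DMSO (-0.62 ± 0.20, adjusted p = 0.0494), where replicate 2 is the treated library nearest to DMSO. Without that replicate the OPM2 value was -0.85 (adjusted p = 0.00102). Without OPM2 DMSO replicates 1, 2 and 3 in turn the OPM2 call was lost (adjusted p = 0.104, 0.121 and 0.12), as it was without dBRD9-A replicates 1 and 3 (adjusted p = 0.129 and 0.0951). The H929 call was lost without H929 DMSO replicate 2 (adjusted p = 0.0649) and without dBRD9-A replicate 1 (adjusted p = 0.0551).

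DDX50 shares most of its structure with DDX21 but was not called in either line, at -0.14 ± 0.09 in H929 and -0.11 ± 0.09 in OPM2 (SE, edgeR adjusted p = 0.381 and 0.429). It had 28.1, 29.1 and 28.6 CPM in H929 with dBRD9-A and 31.6, 31.7 and 31.3 CPM with DMSO. The ratio of DDX21 to DDX50 was 9.33, 7.09 and 11.501 in H929 with dBRD9-A and 13.3, 18.4 and 15.9 with DMSO. In OPM2 the ratio was 4.51, 6.25 and 5.12 with dBRD9-A and 7.23, 7.70 and 7.76 with DMSO. In each line the treated libraries had the lower ratios without overlap.

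**Figure D3:**
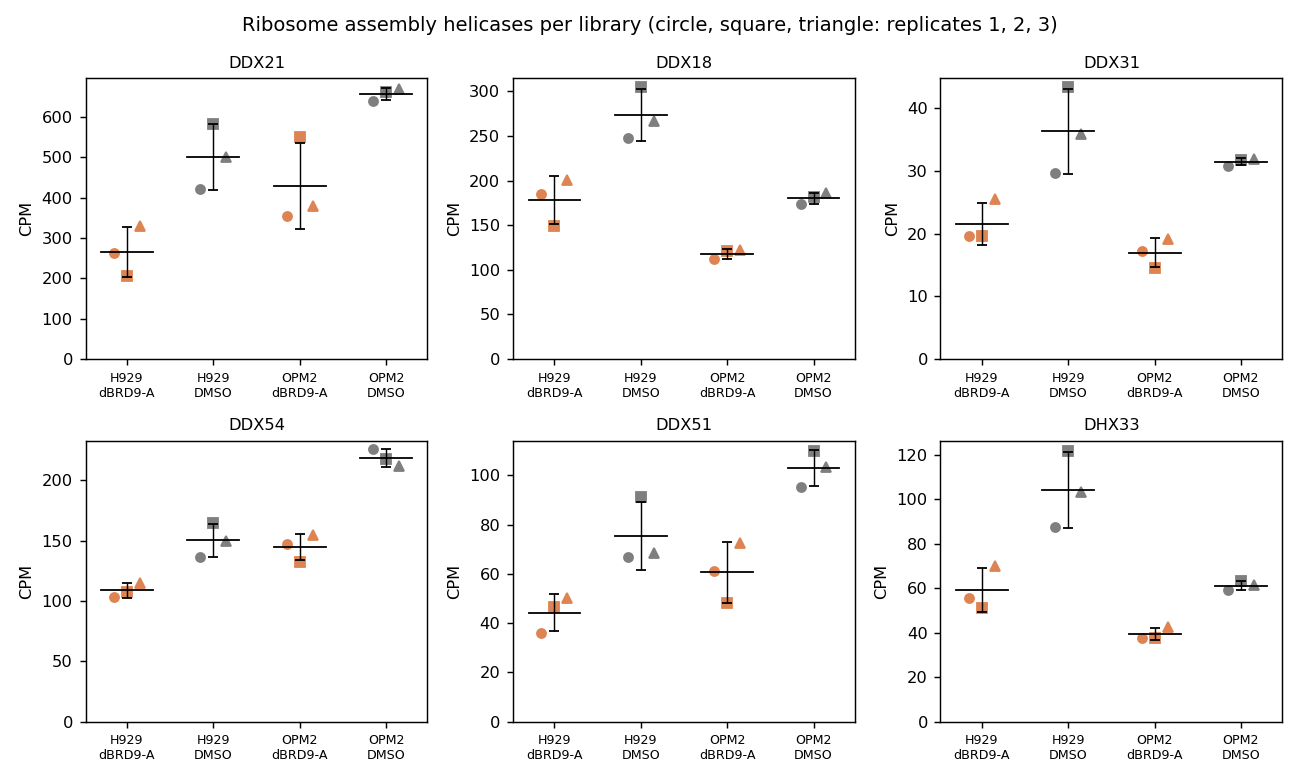
CPM of 6 ribosome assembly members called lower in both lines (y axes from 0), for dBRD9-A and DMSO libraries of H929 and then OPM2. Circles, squares and triangles are replicates 1, 2 and 3, and bars are mean ± SD. In all 6 panels the treated libraries of a line lie below its DMSO libraries.

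The other ribosome assembly members followed in part. DDX51, the sixth member lower in both lines, averaged 44.3 ± 7.33 CPM in H929 with dBRD9-A and 75.5 ± 13.7 with DMSO, and 60.6 ± 12.3 and 103 ± 7.31 CPM in OPM2 (SD, n = 3). Its log2 fold changes were -0.77 and -0.76 (edgeR adjusted p = 0.0153 and 0.0129). The OPM2 call was lost without OPM2 DMSO replicate 2 (adjusted p = 0.0562), and the H929 call without H929 DMSO replicate 2 (adjusted p = 0.108) and without dBRD9-A replicate 1 (adjusted p = 0.0996) or 2 (adjusted p = 0.0534).

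DDX55 fell in H929 alone by the threshold (-0.51, edgeR adjusted p = 0.0108), with -0.27 in OPM2 (adjusted p = 0.115). DDX47, DDX56 and DHX37 passed it in OPM2 alone. DHX37, which releases the U3 small nucleolar RNA from the small subunit precursor, was at -0.88 in OPM2 (adjusted p = 0.0485) and -0.63 in H929 (adjusted p = 0.166). DDX56 was at -0.67 (adjusted p = 0.0353) and DDX47 at -0.41 (adjusted p = 0.0292) in OPM2, and their H929 values were -0.59 (adjusted p = 0.0658) and -0.29 (adjusted p = 0.119). None of these calls held with each library left out in turn. All 3 OPM2 calls were lost without any 1 of the OPM2 DMSO replicates, with adjusted p of 0.104, 0.128 and 0.116 for DHX37, 0.0865, 0.106 and 0.0871 for DDX56, and 0.0658, 0.0932 and 0.0932 for DDX47. Without OPM2 dBRD9-A replicate 1 DHX37 and DDX47 were also lost (adjusted p = 0.0645 and 0.0736), and DDX55 was lost without H929 DMSO replicate 2 (adjusted p = 0.064) or 3 (adjusted p = 0.0503) or dBRD9-A replicate 1 (adjusted p = 0.0569). Without OPM2 dBRD9-A replicate 2 each of these genes was called lower in both lines. The adjusted p in H929 and OPM2 were then 0.000437 and 0.00749 for DDX55 and 0.0449 and 0.004 for DDX47. They were 0.000584 and 0.00633 for DDX56 and 0.00128 and 0.00453 for DHX37.

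The remaining members of the role are DDX10, DDX27, DDX49, DDX24, DDX52 and DDX50. DDX10 and DDX27 were at -0.81 and -0.49 in H929 (edgeR adjusted p = 0.104 and 0.0503), and at -0.10 and -0.04 in OPM2 (adjusted p = 0.865 and 0.901). Leaving out OPM2 dBRD9-A replicate 2, both fell in both lines, DDX10 by 0.78 in H929 and 0.71 in OPM2 on the log2 scale (adjusted p = 2e-04 and 0.00125), and DDX27 by 0.45 and 0.27 (adjusted p = 0.000319 and 0.0216). DDX49 was at -0.55 in H929 and -0.61 in OPM2 without a call in either (adjusted p = 0.142 and 0.0871), and was called in both without that library (adjusted p = 0.00131 and 0.0316). DDX24, DDX52 and DDX50 were not called in either line with or without it, with values between -0.21 and 0.05 over all libraries.

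The start sites of these genes were read from the RefSeq promoter table of GRCh38.p14, which held 59 windows of 300 bases (250 before and 50 after the start) for 45 of the 54 symbols. CACGTG, the palindromic E-box that MYC and other factors bind, was in 4 of 15 windows of ribosome assembly members (26.7%), in 9 of 59 windows of all members (15.3%) and in 7.26% of the 35116 windows of the table. The 4 windows are printed with CACGTG in capitals, since 3 of the genes are the ones described above with the values of each library. A match is a run of letters and not a measured binding site.
DDX54: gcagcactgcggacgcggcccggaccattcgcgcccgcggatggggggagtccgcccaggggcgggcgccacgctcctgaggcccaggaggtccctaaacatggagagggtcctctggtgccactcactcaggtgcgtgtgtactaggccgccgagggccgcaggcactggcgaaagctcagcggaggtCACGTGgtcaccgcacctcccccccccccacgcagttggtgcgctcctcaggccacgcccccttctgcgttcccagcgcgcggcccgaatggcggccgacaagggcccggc
DDX31: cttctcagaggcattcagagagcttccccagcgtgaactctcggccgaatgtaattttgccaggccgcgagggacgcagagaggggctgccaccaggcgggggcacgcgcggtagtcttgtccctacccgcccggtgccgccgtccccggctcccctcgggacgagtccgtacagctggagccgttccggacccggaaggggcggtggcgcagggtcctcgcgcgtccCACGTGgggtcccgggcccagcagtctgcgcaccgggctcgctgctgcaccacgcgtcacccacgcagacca
DDX21: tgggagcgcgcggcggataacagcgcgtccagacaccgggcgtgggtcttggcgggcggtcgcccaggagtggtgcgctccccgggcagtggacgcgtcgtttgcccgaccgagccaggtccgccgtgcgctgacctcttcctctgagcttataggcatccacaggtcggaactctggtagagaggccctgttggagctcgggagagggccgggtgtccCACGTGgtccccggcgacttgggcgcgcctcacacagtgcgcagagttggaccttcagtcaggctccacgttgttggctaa
DHX37: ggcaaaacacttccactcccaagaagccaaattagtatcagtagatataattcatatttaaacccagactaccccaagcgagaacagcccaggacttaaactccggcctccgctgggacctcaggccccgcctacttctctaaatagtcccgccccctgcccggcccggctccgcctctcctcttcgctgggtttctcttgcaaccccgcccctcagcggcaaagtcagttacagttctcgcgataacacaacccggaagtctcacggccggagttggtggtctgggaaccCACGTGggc
The DDX54 window lies at chr12:113185429-113185728 on the minus strand with the match 61 bases before the start, and the DDX31 window, the first of 3 for that gene, at chr9:132669934-132670233 on the minus strand with the match 22 bases before. The DDX21 window, the second of 2, lies at chr10:68956397-68956696 on the plus strand with the match 31 bases before, and the DHX37 window at chr12:124989082-124989381 on the minus strand with the match 41 bases after the start. DDX51, DDX47, DDX55 and DDX56, which were also called, had no CACGTG in their windows, and DDX18 and DHX33 had no window in the table. Of the 5 windows of members with no settled role, none of them called, 2 held CACGTG (40%).

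Both mitochondrial members, DDX28 and DHX30, which act in assembly of the mitochondrial ribosome, fell in OPM2, beside 7.36% of all genes. Neither was called in H929, beside 5.67% of all genes lower. DDX28 had 23.3, 11.9 and 23.8 CPM in OPM2 with dBRD9-A and 36.9, 35.4 and 36.0 CPM with DMSO (log2 fold change -0.87 ± 0.22 SE, edgeR adjusted p = 0.0168). In H929 DDX28 had 20.5, 26.6 and 25.3 CPM with dBRD9-A and 33.7, 37.8 and 31.2 CPM with DMSO (-0.50 ± 0.21, adjusted p = 0.15). The groups did not overlap in either line, and replicate 2 was the lowest OPM2 library.

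DHX30 had 114, 136 and 135 CPM in H929 with dBRD9-A and 148, 174 and 156 CPM with DMSO (log2 fold change -0.31 ± 0.14 SE, edgeR adjusted p = 0.193). In OPM2 DHX30 had 92.0, 65.5 and 96.4 CPM with dBRD9-A and 128, 131 and 117 CPM with DMSO (-0.57 ± 0.14, adjusted p = 0.0196). The groups again did not overlap. Without OPM2 dBRD9-A replicate 2 both genes were lower in both lines, DDX28 at -0.47 in H929 and -0.63 in OPM2 (adjusted p = 0.0018 and 0.000619) and DHX30 at -0.27 and -0.43 (adjusted p = 0.0229 and 0.00401). Without OPM2 DMSO replicates 1, 2 and 3 in turn the OPM2 call of DDX28 was lost (adjusted p = 0.056, 0.0534 and 0.0525), and without replicates 1 and 2 that of DHX30 (adjusted p = 0.0666 and 0.0754).

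None of the 11 splicing and small nuclear ribonucleoprotein members was called in either line by edgeR, although 4 in H929 and 1 in OPM2 had an unadjusted p under 0.05. Of all genes 13.0% were called in H929 and 17.4% in OPM2, so 0 of 11 members does not show that the role was spared. The share of all genes with an unadjusted p under 0.05 was not computed. DESeq2 called 3 lower in H929 and 0 in OPM2, beside 7.61% and 9.90% of all genes. Limma-voom called 4 and 2 lower, beside 18.6% and 20.9%. The median log2 fold change was -0.15 in H929 and 0.06 in OPM2, and the OPM2 median became -0.07 without OPM2 dBRD9-A replicate 2. Without that library DDX20, DHX15, DDX41 and DHX35 fell in H929 and DDX20 and DHX15 in OPM2, beside 16.5% and 15.6% of all genes.

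DDX41, a helicase of the late spliceosome whose gene is mutated in inherited myeloid leukaemia, had 105, 114 and 121 CPM in H929 with dBRD9-A and 136, 153 and 135 CPM with DMSO (log2 fold change -0.32 ± 0.10 SE, edgeR adjusted p = 0.0556). In OPM2 DDX41 had 50.4, 45.2 and 51.3 CPM with dBRD9-A and 57.0, 55.8 and 56.7 CPM with DMSO (-0.21 ± 0.10, adjusted p = 0.175). The treated libraries lay below DMSO in both lines without passing the threshold. With OPM2 dBRD9-A replicate 2 left out the values were -0.29 in H929 and -0.16 in OPM2 (adjusted p = 0.00837 and 0.159).

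DHX15, which releases the excised intron lariat and also serves ribosome assembly, had 219, 202 and 242 CPM in H929 with dBRD9-A and 254, 312 and 272 CPM with DMSO (log2 fold change -0.34 ± 0.11 SE, edgeR adjusted p = 0.0665). In OPM2 DHX15 had 281, 305 and 303 CPM with dBRD9-A and 329, 361 and 373 CPM with DMSO (-0.26 ± 0.11, adjusted p = 0.128). It was called in both once OPM2 dBRD9-A replicate 2 was left out, at -0.30 and -0.29 (adjusted p = 0.0187 and 0.0434).

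DDX20, the Gemin3 subunit of the SMN complex that builds spliceosomal particles, had 42.2, 39.95 and 43.7 CPM in H929 with dBRD9-A and 51.8, 56.7 and 55.01 CPM with DMSO (log2 fold change -0.38 ± 0.12 SE, edgeR adjusted p = 0.068). In OPM2 DDX20 had 13.6, 17.8 and 12.9 CPM with dBRD9-A and 17.0, 17.3 and 16.4 CPM with DMSO (-0.20 ± 0.13, adjusted p = 0.287). In OPM2 replicate 2 lay above every DMSO library and its mates below them, and without replicate 2 DDX20 was at -0.34 in H929 and -0.37 in OPM2 (adjusted p = 0.00233 and 0.0048).

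DHX35 had 15.8, 15.1 and 18.0 CPM in H929 with dBRD9-A and 18.8, 22.5 and 20.1 CPM with DMSO (log2 fold change -0.33 ± 0.12 SE, edgeR adjusted p = 0.101), and in OPM2 17.1, 19.2 and 17.8 CPM with dBRD9-A against 16.7, 19.5 and 18.0 CPM with DMSO. Leaving out OPM2 dBRD9-A replicate 2, it was called in H929 (adjusted p = 0.0316). DHX8, DHX38, DDX23, DDX42, DDX46 and the abundant pair DDX5 and DDX17 lay between -0.17 and 0.13 in H929 and between 0.04 and 0.44 in OPM2. DDX46 held the OPM2 maximum of 0.44 over all libraries and -0.07 without replicate 2.

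Of the 4 export members, 1 fell in both lines (25%, beside 3.19% of all genes). DDX19A, which works at the cytoplasmic face of the nuclear pore to strip export factors from messenger RNA, had 48.7, 51.6 and 59.1 CPM in H929 with dBRD9-A and 63.3, 83.1 and 71.0 CPM with DMSO (log2 fold change -0.45 ± 0.13 SE, edgeR adjusted p = 0.0357). In OPM2 DDX19A had 68.3, 61.0 and 73.7 CPM with dBRD9-A and 96.0, 102 and 96.4 CPM with DMSO (-0.53 ± 0.13, adjusted p = 0.0132). The groups did not overlap in either line. The H929 call was lost without H929 DMSO replicate 2 or 3 (adjusted p = 0.228 and 0.121) and without dBRD9-A replicate 1 or 2 (adjusted p = 0.187 and 0.138), and the OPM2 call without OPM2 DMSO replicate 2 (adjusted p = 0.0569).

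DDX19B, the close paralogue with the same activity, had 19.9, 21.9 and 21.2 CPM in H929 with dBRD9-A and 21.0, 21.1 and 21.0 CPM with DMSO. In OPM2 DDX19B had 11.8, 13.4 and 11.4 CPM with dBRD9-A and 11.97, 11.4 and 12.8 CPM with DMSO. The groups overlapped in both lines, with log2 fold changes of 0.00 ± 0.11 in H929 and 0.01 ± 0.11 in OPM2 (SE, edgeR adjusted p = 0.988 and 0.956). The ratio of DDX19A to DDX19B was 2.44, 2.35 and 2.79 in H929 with dBRD9-A and 3.01, 3.93 and 3.37 with DMSO, and in OPM2 5.80, 4.54 and 6.45 with dBRD9-A and 8.02, 8.92 and 7.51 with DMSO. Reads shared by so close a pair could be assigned to either gene.

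DDX39A, an export helicase closely related to DDX39B, had 99.0, 134 and 113 CPM in H929 with dBRD9-A and 165, 179 and 147 CPM with DMSO (log2 fold change -0.51 ± 0.26 SE, edgeR adjusted p = 0.235). In OPM2 DDX39A had 160.3, 71.2 and 178 CPM with dBRD9-A and 223, 194 and 229.8 CPM with DMSO (-0.66 ± 0.26, adjusted p = 0.0992). Replicate 2 of OPM2 dBRD9-A was far below its mates. Without it DDX39A was called lower in both lines, at -0.47 and -0.36 (adjusted p = 0.00329 and 0.0326).

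DDX39B, also called UAP56, had 2.20, 1.87 and 2.37 CPM in H929 with dBRD9-A and 2.39, 3.47 and 2.96 CPM with DMSO (log2 fold change -0.45 ± 0.19 SE, edgeR adjusted p = 0.139). In OPM2 DDX39B had 2.81, 3.41 and 2.88 CPM with dBRD9-A and 2.83, 3.01 and 3.34 CPM with DMSO (-0.02, adjusted p = 0.956). Its level is uncertain, because the files hold 24 rows of this symbol for separate placements, each counted on its own, and the counts lie within 5% of those of the readthrough gene ATP6V1G2-DDX39B.

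The 7 members of translation and decay gave 1 call per line, each lower. That is 14.3% of the 7, beside 5.67% of all genes lower in H929 and 7.36% in OPM2. DHX34, a factor of nonsense-mediated decay, had 26.5, 30.2 and 27.5 CPM in H929 with dBRD9-A and 37.7, 47.2 and 42.3 CPM with DMSO (log2 fold change -0.60 ± 0.21 SE, edgeR adjusted p = 0.0858). In OPM2 DHX34 had 33.7, 18.6 and 39.4 CPM with dBRD9-A and 51.8, 56.1 and 50.5 CPM with DMSO (-0.78 ± 0.21, adjusted p = 0.0255). The groups did not overlap, and without OPM2 dBRD9-A replicate 2 it was called in both lines, at -0.56 and -0.54 (adjusted p = 0.00037 and 0.00134). In OPM2 the call was lost without DMSO replicate 1, 2 or 3 (adjusted p = 0.068, 0.0903 and 0.0635).

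DHX9, RNA helicase A, which unwinds RNA and DNA in transcription and translation, had 312, 289 and 341 CPM in H929 with dBRD9-A and 365, 445 and 417 CPM with DMSO (log2 fold change -0.38 ± 0.11 SE, edgeR adjusted p = 0.0429). In OPM2 DHX9 had 521, 607 and 538 CPM with dBRD9-A and 666, 713 and 702 CPM with DMSO (-0.32 ± 0.11, adjusted p = 0.0681). No library overlapped between treatments. The H929 call was lost without any 1 of H929 DMSO replicates 2 and 3 (adjusted p = 0.217 and 0.154) or dBRD9-A replicates 1, 2 and 3 (adjusted p = 0.155, 0.163 and 0.0583), and without OPM2 dBRD9-A replicate 2 it was called in both lines (adjusted p = 0.00607 and 0.00599).

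DDX1 had 173, 165 and 183 CPM in H929 with dBRD9-A and 197, 220.3 and 205 CPM with DMSO, and in OPM2 99.7, 148 and 95.2 CPM with dBRD9-A and 105, 117 and 112 CPM with DMSO. It was not called (log2 fold change -0.25 and 0.04, edgeR adjusted p = 0.309 and 0.898), and without OPM2 dBRD9-A replicate 2 it was called lower in H929 (-0.22, adjusted p = 0.033). DDX3X, which opens structured leaders for translation, had 533, 435 and 540.1 CPM in H929 with dBRD9-A and 545, 619.9 and 598 CPM with DMSO, and in OPM2 541, 767 and 556 CPM with dBRD9-A and 610.1, 622 and 681 CPM with DMSO. It was not called (log2 fold change -0.23 and -0.04, edgeR adjusted p = 0.357 and 0.891). DDX6, the decay helicase of P-bodies, DHX29 and DHX36 lay between -0.08 and 0.15 in the 2 lines and were not called.

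DDX11, a DNA helicase that helps hold sister chromatids together, had 65.8, 74.3 and 59.8 CPM in H929 with dBRD9-A and 88.5, 96.5 and 98.0 CPM with DMSO (log2 fold change -0.50 ± 0.18 SE, edgeR adjusted p = 0.0829). In OPM2 DDX11 had 86.7, 56.4 and 102 CPM with dBRD9-A and 122, 133 and 125 CPM with DMSO (-0.63 ± 0.18, adjusted p = 0.0295). The OPM2 call was lost without OPM2 DMSO replicate 1, 2 or 3 (adjusted p = 0.0705, 0.101 and 0.0776) or dBRD9-A replicate 1 (adjusted p = 0.0515), and without dBRD9-A replicate 2 it fell in both lines (adjusted p = 0.00105 in H929 and 0.00445 in OPM2). Its pseudogene copy DDX12P was at -0.36 and -0.39 (adjusted p = 0.338 and 0.25), and was called lower in H929 without that library (adjusted p = 0.0163). The copies are nearly the same in sequence, so reads may be split between them.

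The DDX11L transcripts, from pseudogene copies, were low apart from DDX11L2 in H929. DDX11L2 had 11.8, 13.0 and 10.7 CPM in H929 with dBRD9-A and 14.2, 14.1 and 14.9 CPM with DMSO, and 0 to 1.0004 CPM in the OPM2 libraries. DDX11L5 had 0.532, 3.79 and 0.377 CPM in OPM2 with dBRD9-A against 0.361, 0.301 and 0.325 CPM with DMSO, so its log2 fold change of 2.11 (edgeR adjusted p = 0.0604) rests on replicate 2 and was 0.46 without it. DDX11L9 stayed below 1 CPM in every library. None of the 3 was called by edgeR over all 12 libraries with TMM factors in either line, with 1 in OPM2 at an unadjusted p under 0.05. Of all genes 13.0% were called in H929 and 17.4% in OPM2. DESeq2 called 1 higher in OPM2, beside 15.0% of all genes, and limma-voom 0.

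DDX60L and DDX60 rose in both lines, the only members called higher by edgeR with TMM factors over all 12 libraries. DESeq2 also called DDX11L5 and DDX43 higher in OPM2, and with the GC trend removed edgeR also called DDX11L5 there (log2 fold change 2.47, adjusted p = 0.0426). Without OPM2 dBRD9-A replicates 1 and 3 in turn, 3 and 4 members were called higher there, beside 8.54% and 13.0% of all genes. DDX60 and DDX60L are cytoplasmic helicases induced by interferon, and DDX60 has been described as a cofactor of RNA sensing. DDX60L had 1.13, 1.16 and 1.26 CPM in H929 with dBRD9-A and 0.194, 0.267 and 0.307 CPM with DMSO. In OPM2 DDX60L had 50.4, 61.3 and 57.0 CPM with dBRD9-A and 15.0, 17.8 and 24.1 CPM with DMSO. The treated libraries lay above DMSO without overlap, with log2 fold changes of 2.21 ± 0.25 in H929 and 1.56 ± 0.17 in OPM2 (SE, edgeR adjusted p = 0.000343 and 0.000191). In H929 these levels rest on 55, 50 and 75 counts with dBRD9-A and 12, 15 and 17 with DMSO.

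DDX60 had 3.32, 1.99 and 3.99 CPM in H929 with dBRD9-A and 0.661, 0.872 and 0.542 CPM with DMSO. In OPM2 DDX60 had 7.08, 7.96 and 6.26 CPM with dBRD9-A and 2.42, 2.26 and 3.02 CPM with DMSO. The groups did not overlap, and the log2 fold changes were 2.17 ± 0.28 in H929 and 1.46 ± 0.25 in OPM2 (SE, edgeR adjusted p = 0.000729 and 0.00275). The calls of both genes held in every alternative run in each line, and without OPM2 dBRD9-A replicate 2 they were 2.21 and 1.36 for DDX60 and 2.25 and 1.49 for DDX60L.

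**Figure D4:**
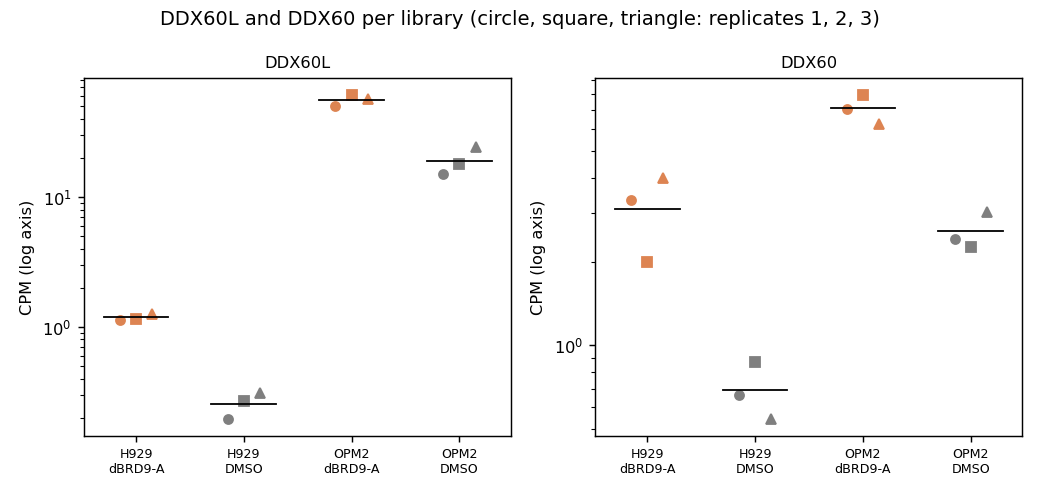
CPM of DDX60L and DDX60 in each library on log axes, for dBRD9-A and DMSO libraries of H929 and then OPM2, with circles, squares and triangles for replicates 1, 2 and 3 and bars at the mean. Treated libraries lie above DMSO in each line, and DDX60L in H929 with dBRD9-A, at 1.13 to 1.26 CPM, stays below OPM2 with DMSO, at 15.0 to 24.1 CPM.

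The order of the pair differed between the lines. DDX60L exceeded DDX60 in OPM2, with a CPM ratio of 7.11, 7.70 and 9.10 with dBRD9-A and 6.22, 7.87 and 7.98 with DMSO. In H929 the ratio was 0.340, 0.581 and 0.316 with dBRD9-A and 0.293, 0.306 and 0.567 with DMSO. The treated and DMSO ratios overlapped within each line.

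The windows of both genes on chromosome 4 held 2 matches each to GAAA, any 2 bases and GAAA, the core of the interferon-stimulated response element, searched on both strands. The element was in 3 of 59 member windows (5.08%) and in 3.57% of the 35116 windows of the table, and the remaining match was in DHX15. Both windows are printed because these are the genes that rose, with the matches in capitals.
DDX60: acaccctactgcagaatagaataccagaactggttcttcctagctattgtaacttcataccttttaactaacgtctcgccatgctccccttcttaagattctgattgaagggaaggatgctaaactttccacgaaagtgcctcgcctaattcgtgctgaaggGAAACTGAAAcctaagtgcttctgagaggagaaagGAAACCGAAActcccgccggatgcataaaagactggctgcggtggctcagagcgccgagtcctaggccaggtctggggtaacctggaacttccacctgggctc
DDX60L: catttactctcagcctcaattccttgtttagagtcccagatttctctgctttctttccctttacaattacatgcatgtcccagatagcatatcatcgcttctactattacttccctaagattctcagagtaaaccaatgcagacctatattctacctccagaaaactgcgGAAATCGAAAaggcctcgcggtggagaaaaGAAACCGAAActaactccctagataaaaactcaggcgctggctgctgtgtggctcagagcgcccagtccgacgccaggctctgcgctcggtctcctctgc
The DDX60 window lies at chr4:168318703-168319002 on the minus strand of GRCh38.p14 with matches starting 88 and 53 bases before the start, and the DDX60L window at chr4:168480443-168480742 on the minus strand with matches starting 80 and 50 bases before it. Binding was not measured.

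The germ line members were low and neither was called, beside 13.0% of all genes called in H929 and 17.4% in OPM2. DDX43, a cancer-testis gene, had 2.52, 2.13 and 2.61 CPM in H929 with dBRD9-A and 2.69, 1.85 and 1.88 CPM with DMSO. In OPM2 DDX43 had 0.266, 0.926 and 0.211 CPM with dBRD9-A and 0.126, 0.233 and 0.0779 CPM with DMSO (log2 fold change 1.43 ± 0.56 SE, edgeR adjusted p = 0.0959, and 0.70 without replicate 2). DDX53, an intronless X-linked cancer-testis gene, had 3.24, 6.57 and 2.94 CPM in OPM2 with dBRD9-A and 2.97, 4.11 and 3.14 CPM with DMSO. In H929 it had 1 count in all with dBRD9-A and 2 counts in all with DMSO, too few for a fold change. Of the 2 genes 1 had an unadjusted p under 0.05 in OPM2 and 0 in H929. DESeq2 called 1 higher in OPM2, beside 15.0% of all genes, and limma-voom called 0.

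Of 5 members with no settled place in these roles none was called by edgeR, and none had an unadjusted p under 0.05. Of all genes 13.0% were called in H929 and 17.4% in OPM2. DESeq2 called 0, and limma-voom 1 lower in OPM2, beside 20.9% of all genes. DDX26B, now named INTS6L, had 66.3, 60.5 and 65.0 CPM in H929 with dBRD9-A and 62.8, 58.3 and 56.5 CPM with DMSO, and in OPM2 39.5, 59.1 and 41.5 CPM with dBRD9-A and 37.1, 40.8 and 40.2 CPM with DMSO. DHX40, DHX32, DHX57 and DDX59 had log2 fold changes between -0.19 and 0.05 in H929 and between -0.06 and 0.20 in OPM2.

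The difference of the responses, H929 minus OPM2, was called by edgeR for 0 of the 54 members, beside 0.579% of all genes (0.293% higher and 0.286% lower). DESeq2 and limma-voom also called 0, and 1 member had an unadjusted p under 0.05, the low DDX11L5 (difference -2.46). DDX10 had -0.72 ± 0.43, DDX60 0.70 ± 0.37 and DDX60L 0.65 ± 0.31 (SE, edgeR adjusted p = 0.665, 0.626 and 0.584). Calls made in a single line are therefore not shown to differ between the lines.

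Relatives and partners of the family were counted as lists. Of 22 other RNA helicases 19 were tested, of which 2 rose and 3 fell in H929 and 2 rose and 2 fell in OPM2, with medians of -0.14 and 0.06. The shares lower were 15.8% in H929 and 10.5% in OPM2, beside 5.67% and 7.36% of all genes, and the share higher was 10.5% in each, beside 7.33% and 10.1%. None fell in H929 without H929 DMSO replicate 2 or dBRD9-A replicate 1, 1 fell without DMSO replicate 3 or dBRD9-A replicate 2, and 4 rose and 6 fell without OPM2 dBRD9-A replicate 2, when 19.2% of all genes were higher and 16.5% lower. In OPM2 that library left out gave 4 and 4, beside 16.1% and 15.6%, and DMSO replicate 3 left out gave 2 and 1. MOV10, an interferon-linked helicase that binds viral and retroelement RNA, had 27.8, 31.0 and 27.4 CPM in H929 with dBRD9-A and 13.9, 8.58 and 9.25 CPM with DMSO, and in OPM2 7.57, 4.34 and 6.61 CPM with dBRD9-A and 1.05, 1.07 and 1.17 CPM with DMSO. Its log2 fold changes were 1.44 and 2.51 (edgeR adjusted p = 0.0015 and 5.59e-05). HELZ2 rose in OPM2 (2.27, adjusted p = 0.0022), with 0.51 in H929 (adjusted p = 0.21). It was near the floor in OPM2, at 1.40, 0.379 and 1.04 CPM with dBRD9-A and 0.267, 0.178 and 0.195 CPM with DMSO. HELZ2 had 137, 132 and 116 CPM in H929 with dBRD9-A and 103, 67.0 and 102 CPM with DMSO. Treated libraries lay above DMSO without overlap in both lines. EIF4A1, the DEAD box helicase of translation initiation named outside the DDX series, fell by 0.45 in H929 and 0.57 in OPM2 on the log2 scale (adjusted p = 0.0277 and 0.00779), but the H929 call was lost without any of the 6 H929 libraries (adjusted p = 0.0712 to 0.171). SUPV3L1, a mitochondrial RNA helicase, fell by 0.65 in H929 (adjusted p = 0.00984), with -0.37 in OPM2 (adjusted p = 0.0788). Its call was lost without H929 DMSO replicate 2 (adjusted p = 0.0608) or dBRD9-A replicate 1 (adjusted p = 0.0582).

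Of 36 cofactors 1 rose and 4 fell in H929, and 2 rose and 3 fell in OPM2, with medians of -0.17 and 0.00. The shares lower, 11.1% in H929 and 8.33% in OPM2, stand beside 5.67% and 7.36% of all genes, and the shares higher, 2.78% and 5.56%, beside 7.33% and 10.1%. Without OPM2 dBRD9-A replicate 2, 11 fell in H929 and 10 in OPM2 and 2 rose in each, when 16.5% and 15.6% of all genes were lower and 19.2% and 16.1% higher. In H929, 2 fell without DMSO replicate 2 or without dBRD9-A replicate 1 or 2, and in OPM2 1 fell without any of the DMSO replicates or dBRD9-A replicate 1. PINX1, a G-patch activator of DHX15, fell by 0.83 in H929 and 0.84 in OPM2 on the log2 scale (edgeR adjusted p = 0.00229 and 0.00174). UTP14A, the partner of DHX37, fell by 0.66 and 0.54 (adjusted p = 0.0118 and 0.0253). The H929 call of UTP14A was lost without H929 DMSO replicate 2 (adjusted p = 0.0733) and without dBRD9-A replicate 1 or 2 (adjusted p = 0.0687 and 0.0564), and the OPM2 call without OPM2 DMSO replicate 1, 2 or 3 (adjusted p = 0.0612, 0.0869 and 0.0666) or dBRD9-A replicate 1 (adjusted p = 0.0773). NOM1, which anchors EIF4A3 in the nucleolus, fell by 0.62 and 0.38 (adjusted p = 0.00724 and 0.0498), and its OPM2 call was lost without OPM2 DMSO replicate 1, 2 or 3 (adjusted p = 0.115, 0.116 and 0.128) or dBRD9-A replicate 1 or 3 (adjusted p = 0.137 and 0.0732). PDCD4, which binds and inhibits EIF4A1, rose by 0.87 and 1.08 (adjusted p = 0.0209 and 0.00645). Its H929 call was lost without H929 DMSO replicate 2 or 3 (adjusted p = 0.0854 and 0.0552) or dBRD9-A replicate 1 (adjusted p = 0.0858).

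Between the lines in DMSO, 10 members differed at least 2-fold with an adjusted p under 0.05, 4 higher and 6 lower in H929, beside 36.3% of all genes (21.4% higher and 15.0% lower). All 10 calls held in every alternative run. DDX60L averaged 0.256 ± 0.0576 CPM in H929 and 19.0 ± 4.66 CPM in OPM2 (log2 difference -6.21 ± 0.24 SE, edgeR adjusted p = 5.67e-10), and DDX60 averaged 0.692 ± 0.167 and 2.57 ± 0.403 CPM (-1.89 ± 0.27, adjusted p = 7.05e-05). DDX53 had 2 counts in H929 and 731 in OPM2, a ratio of library-scaled levels of 0.00309 (95% exact interval 0.000374 to 0.0112, counting error only). DDX53 reached the minimum mean of 10 counts only through OPM2, so a difference between the lines was built in by the rule for this gene.

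The nucleolar paralogue DDX50 averaged 31.5 ± 0.161 CPM in H929 and 86.9 ± 1.40 in OPM2 (-1.46, edgeR adjusted p = 6.2e-08), and DDX47 averaged 27.2 ± 2.83 and 76.3 ± 2.59 (-1.49, adjusted p = 2.84e-07). DDX12P was also lower in H929 (-1.11, adjusted p = 0.00104). Higher in H929 were DDX11L2 (4.46, adjusted p = 9.48e-06), DDX43 (3.86, adjusted p = 2.39e-05), DDX20 (1.69, adjusted p = 2.27e-07) and DDX41 (1.32, adjusted p = 2.59e-07). DDX41 averaged 141 ± 9.93 CPM in H929 and 56.5 ± 0.636 in OPM2, and DDX20 54.5 ± 2.49 and 16.9 ± 0.441 CPM (SD, n = 3).

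**Figure D5:**
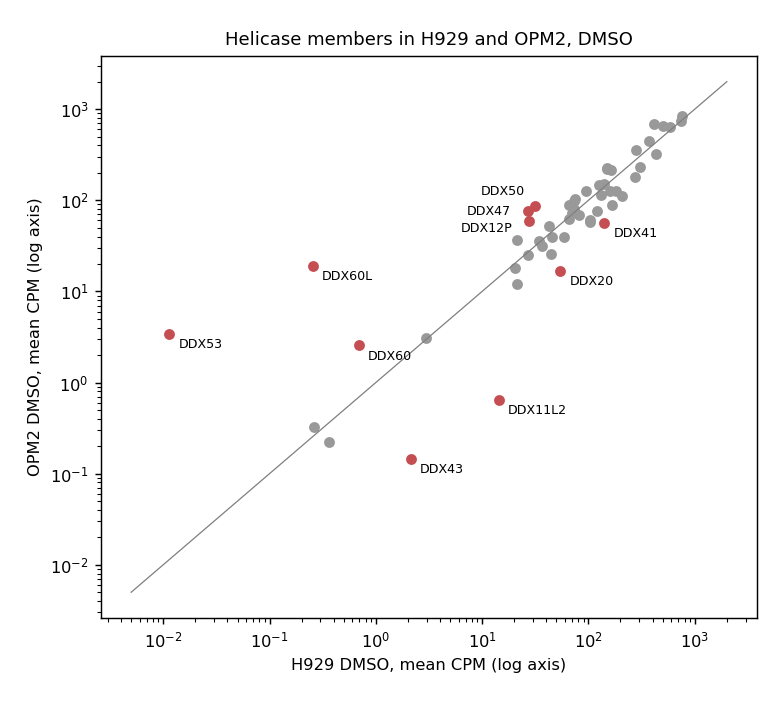
Mean CPM of the 54 members in H929 with DMSO (x axis) and OPM2 with DMSO (y axis), both on log axes, with the line of equality. The 10 members in red differ at least 2-fold with an adjusted p under 0.05, and DDX60L and DDX53 lie farthest above the line. DDX53 reached the minimum mean count only through OPM2.

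In TPM, a level scaled to transcript length, DDX5 and DDX17 were the highest in both lines. DDX5, a helicase of splicing and transcription, averaged 181 ± 11.4 TPM in H929 with DMSO and 205 ± 8.97 in OPM2 with DMSO, and DDX17, its paralogue, 147 ± 10.9 and 182 ± 2.82 TPM. DDX24 followed at 116 ± 11.6 and 157 ± 6.98 TPM, and in OPM2 DHX9, at 154 ± 6.37 TPM, lay within its spread. DDX3X (101 ± 8.81 TPM) and DDX21 (98.2 ± 16.7 TPM) followed in H929 within their spread of each other. With dBRD9-A DDX21 averaged 56.6 ± 13.8 TPM in H929 and 99.5 ± 19.7 TPM in OPM2, against 98.2 ± 16.7 and 144 ± 3.92 TPM with DMSO.

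Summed over the 54 members, the helicases took 6662, 6008 and 6997 CPM in H929 with dBRD9-A and 7272, 8338 and 7825 CPM with DMSO. In OPM2 they took 6993, 8522 and 7186 CPM with dBRD9-A and 8032, 8176 and 8328 CPM with DMSO. In H929 all treated libraries lay below DMSO, while in OPM2 replicates 1 and 3 did and replicate 2 did not. In every library 47 members stood at 10 CPM or more.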

How the data were processed

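The submitters' processing notes name STAR and featureCounts as tools, with hg19 and GRCh37 as builds. Versions and the strand setting of the counting are not given in the sources used here. Antisense reads may be part of a gene's value. Per the labels' protocols, RNA was column-purified and the libraries came from a stranded messenger RNA kit. Each deposited file has 51780 transcripts and, per the file headers, columns for count, FPKM and TPM. The deposited counts are whole reads per transcript, not normalised, with a read counted for each transcript it overlaps; only they were tested. FPKM values as deposited gave transcript length, and TPM values as deposited gave levels between genes.

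Each symbol took its transcript with the highest mean count. After filterByExpr by group 16409 genes were left. They were scaled with TMM factors and tested by edgeR 4.0.16 (R 4.3.3), using quasi-likelihood F-tests on group means over the 12 libraries, which leaves 8 residual degrees of freedom. Benjamini-Hochberg adjustment ran over all genes, and a gene was called at an adjusted p under 0.05. Between the lines in DMSO the log2 difference also had to reach 1 in size. CPM used TMM-scaled library sizes. GC content came from GENCODE transcripts, found for 98.09% of genes. The test was checked on simulated counts with the same spread for all genes. They held no GC trend and no library deviating like OPM2 dBRD9-A replicate 2, so the check does not cover these. Other settings tried were RLE factors, no scaling factors, DESeq2 1.42.0, limma-voom with library weights (limma 3.58.1), no filter, a minimum of 1 CPM in at least 3 libraries, fits of 1 line alone, the replicate number as a block, removal of the GC trend, and omission of each library.

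Members, roles and lists were chosen with earlier results of these data known. Values in every library were given for at most 4 members of a role, by the smaller adjusted p, and at most 4 called genes of each list were named; exceptions are stated. The labels do not say that replicates were separate cultures, and the p-values then reflect the spread between libraries, which may be technical. Intervals cover counting error only. DDX11 and DDX12P, DDX19A and DDX19B, DDX39B and the DDX11L genes have near copies, so their counts are uncertain. Promoters are from RefSeq on GRCh38.p14, a build other than that of the files.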

Additional observations from a re-analysis of the deposited data

How the results depend on the processing

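No member's call changed direction under any alternative, but the number of members called was not stable. In OPM2 it was 16, and became 27 with limma-voom (44.2% of all genes called) and 6 with the line fitted alone (5.82%). With 1 library left out it was 6 to 24 (8.29% to 31.7%). In H929 it was 11, and became 27 with limma-voom (36.0% of all genes), 26 with the line fitted alone (32.3%) and 20 with the GC trend removed (22.3%). With 1 library left out it was 3 to 28 (4.86% to 35.7%). The cause was not tested. The other alternatives gave 11 to 23 in OPM2 (11.3% to 26.6% of all genes) and 9 to 16 in H929 (8.16% to 19.2%). The difference of the responses gave 0 in every alternative that could be fitted, and the lines in DMSO gave 10 in all of them but the GC trend removed, with 12. Fitting a line alone gives no value for these.

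With the replicate number as a block, edgeR called 11 members in OPM2 and 9 in H929, beside 12.9% and 9.70% of all genes. DDX21 (adjusted p = 0.0665), DDX11 (adjusted p = 0.0553), DDX47 (adjusted p = 0.0556), DDX56 (adjusted p = 0.0634) and DHX37 (adjusted p = 0.0655) were lost in OPM2, and DHX9 (adjusted p = 0.065) and DDX19A (adjusted p = 0.0578) in H929. Deviations of same-numbered treated and DMSO libraries correlated at 0.278, -0.002 and -0.087 in OPM2 and at -0.104, -0.166 and -0.12 in H929. In H929 treated replicates 1, 2 and 3 correlated with DMSO replicates 3, 1 and 2 at 0.62, 0.5 and 0.665. The remaining differently numbered pairs were at -0.377, -0.42 and -0.583 in H929, and those of OPM2 at -0.269 to 0.18. A block by replicate number does not take up such links, and their source was not tested.

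Calls held in every alternative were DDX60, DDX60L and DHX33 in H929, and these 3 with DDX18 and DDX31 in OPM2. Depth limits DDX60L, DDX60 and DDX53 in H929, DDX43 and DDX11L2 in OPM2, and DDX11L5 and DDX11L9. DDX43 had 8, 17 and 6 counts in OPM2 with DMSO and 18, 22 and 14 with dBRD9-A. DDX11L2 had 21, 73 and 47 counts in OPM2 with DMSO and 64, 0 and 51 with dBRD9-A. DDX60 had 41, 49 and 30 counts in H929 with DMSO and 162, 86 and 237 with dBRD9-A.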
